A study of Rattus norvegicus with 20 samples.

Results

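The contractile apparatus of smooth muscle, which myofibroblasts partly share, was represented by 10 genes: Acta2, Actg2, Cnn1, Tagln, Tpm2, Cald1, Lmod1, Myh11, Myl9 and Smtn. They were measured by 15 probe sets, taken as those whose platform annotation of the array named a single gene symbol and that symbol was 1 of the 10, out of 31042 probe sets and 14217 genes tested. All 10 genes had a probe set, and the brightest probe set of a gene stands for it below unless another is named. A further 5 probe sets carried the symbols of both Acta2 and Actc1, the cardiac actin, and were not counted as members.

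Smooth muscle cells contract when calcium activates myosin light chain kinase, which phosphorylates the regulatory light chain so that smooth muscle myosin can pull on thin filaments of actin and tropomyosin. Calponin, transgelin, caldesmon, leiomodin and smoothelin bind these actin filaments. In the heart the genes are best known from the muscle layer of coronary vessels and of the great arteries, while fibroblasts that turn into myofibroblasts in injured tissue take up smooth muscle actin and several of its partners. Many of the genes are driven by serum response factor, which binds the CArG box, together with myocardin and related cofactors.

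The tissue was the right ventricle of male Sprague Dawley rats of about 350 g, measured on 20 Affymetrix arrays, 5 per group. Rats with chronic pulmonary embolism (PE) had been injected through the right jugular vein with 2000000 polystyrene microspheres of 25 micron per 100 g, suspended in 0.01% Tween-20, and control rats with Tween-20 vehicle. Hearts were taken at week 6, rinsed of blood, and an outflow tract (base) piece and an apex piece were taken from the right ventricle. The groups were PE outflow, vehicle outflow, PE apex and vehicle apex, at 1 dose and 1 time, and each array held RNA of a whole piece of ventricle. The replicate number was read as the rat within a treatment, since the outflow and apex arrays of a number resembled each other most.

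Cardiomyocyte markers were bright on every array, with a summed signal of 13 measured markers between 224500 and 618000. The mean r of an array with the rest of its group was 0.929 to 0.963 for PE outflow and 0.962 to 0.971 for the other groups. PE outflow replicate 2 stood apart in RNA quality, with a GAPDH 3' to 5' signal ratio of 6.12, against 1.70 to 2.34 on the other PE outflow arrays and 1.38 to 1.83 in the other 3 groups. In vehicle replicate 2 the outflow array was the lowest of its group for 8 of the 10 contractile genes and the apex array the highest for 9. The share of all genes with this pattern on these 2 arrays was not counted. Some results below are therefore also given without PE outflow replicate 2 or without the arrays of vehicle replicate 2.

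Sequence just upstream of a listed start was at hand for 6 of the 10 genes in RefSeq (GRCr8). It came in 7 windows of 250 bases, 2 of them for Cald1. The CArG box, searched on both strands, was in 501 of 33469 windows of all genes (1.5%), and the box or a form with 1 G or C inside its A/T core was in 2703 (8.08%). Of the 7 windows only that of Acta2 held such a match, and it held 2, as did 232 windows of all genes (0.693%) with 2 or more. The matches were CCCTATATGG, 134 to 125 bases before the start, and CCTTGTTTGG, 84 to 75 bases before it, each with 1 inner G or C. Actg2, Cnn1, Tpm2, Cald1 and Smtn had no match of these letters in their windows. The Actg2 window, chr4:117594040-117594289, lay well inside the gene, which spans 117579513 to 117604379. Both Cald1 windows and that of Tpm2 also lay within the span of their gene, and that of Smtn overlapped its end. For these 4 genes the sequence before the outer end of the gene was thus not fully searched. Beyond the 250 bases of a window no sequence was searched for any gene. The window of Acta2 is shown because it alone held the matches, marked in capitals. That of Cnn1 is shown because this gene had the largest fold change in the outflow tract and no match in its window. The Acta2 window is chr1:241172504-241172753 on the minus strand and the Cnn1 window chr8:28908187-28908436 on the plus strand, both written 5′ to 3′ up to the start.
Acta2: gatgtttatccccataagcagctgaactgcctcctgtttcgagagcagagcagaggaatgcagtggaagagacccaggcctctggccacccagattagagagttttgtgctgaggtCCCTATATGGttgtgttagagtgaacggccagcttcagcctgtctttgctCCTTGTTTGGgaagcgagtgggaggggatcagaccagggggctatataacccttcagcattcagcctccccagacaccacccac
Cnn1: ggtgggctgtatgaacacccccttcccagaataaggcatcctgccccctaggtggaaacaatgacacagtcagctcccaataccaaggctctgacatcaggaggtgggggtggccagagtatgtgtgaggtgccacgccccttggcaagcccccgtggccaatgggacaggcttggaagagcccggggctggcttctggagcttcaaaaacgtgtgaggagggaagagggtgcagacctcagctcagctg

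In the outflow tract, PE against vehicle changed all 10 genes: 9 rose, by 2.94-fold to 9.0-fold, and Smtn fell. Of all 14217 genes, 26.3% were called higher and 18% lower in this comparison (limma, Benjamini-Hochberg adjusted p under 0.05 over 31042 probe sets). The median log2 fold change of the 10 genes was 2.23, against 0.10 over all genes. For each of the 9 genes all 5 PE outflow arrays lay above all 5 vehicle outflow arrays, and for Smtn all 5 lay below. Of all genes, 18.8% had their PE arrays entirely above and 12.7% entirely below. In bulk tissue, more cells of a type and more RNA of a gene per cell cannot be told apart. Signals below are linear and in the order of replicates 1 to 5, and fold changes refer to the signal plus 16.

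**Figure D1:**
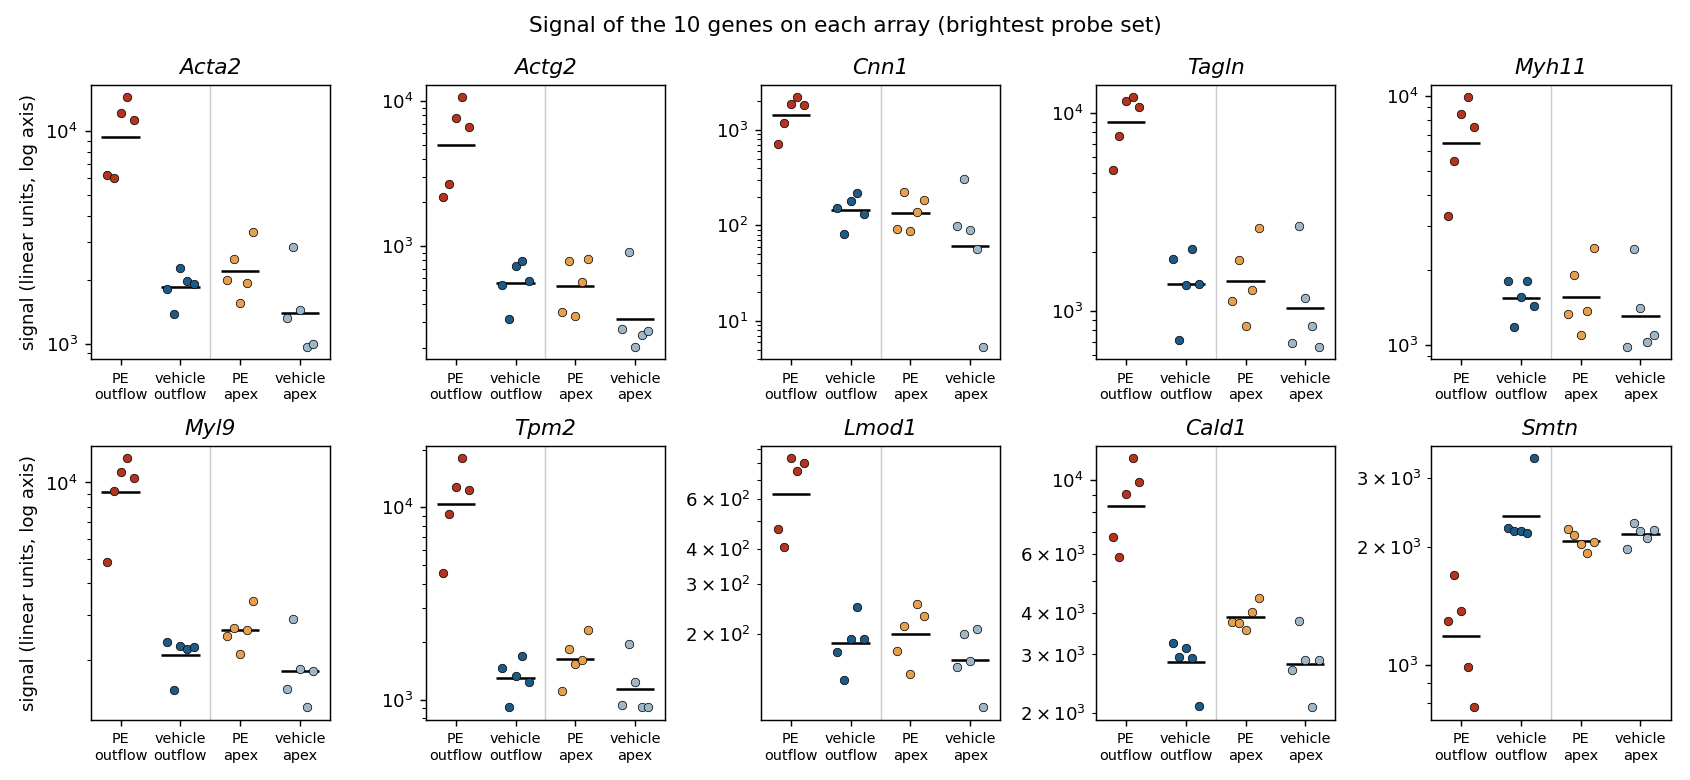
Signal of the 10 genes on each of the 20 arrays (linear signal on a log axis, brightest probe set, 1 point per array, bars at the geometric mean of a group), with the PE group left of the vehicle group in the outflow tract and in the apex. In the outflow tract the PE arrays of 9 genes lie above all vehicle arrays and those of Smtn below, while the apex groups overlap for all 10 genes.

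The thin filament is built on actin. Acta2 encodes smooth muscle alpha-actin, the usual marker of smooth muscle and myofibroblasts. Its signal was 6242, 6022, 12170, 14390 and 11250 on the PE outflow arrays, against 1809, 1385, 2270, 1982 and 1903 on the vehicle outflow arrays. The lowest PE array was above the highest vehicle array, and replicates 1 and 2 were the lowest within PE. The log2 fold change was 2.34 ± 0.29 (SE, n = 5 per group, limma adjusted p = 5.03e-06), a 5.07-fold rise.

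Actg2 encodes smooth muscle gamma-actin, the actin of gut and other visceral muscle. Its signal was 2178, 2684, 7703, 10600 and 6590 in PE outflow, against 539.9, 312, 724, 785 and 577 in vehicle outflow. PE replicates 1 and 2 were again the lowest of the PE arrays, and both were above every vehicle array. Actg2 rose 8.70-fold (log2 3.12 ± 0.45, limma adjusted p = 1.9e-05).

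The 5 probe sets shared by Acta2 and Actc1 went the other way. Of them, 4 fell in PE outflow, with log2 fold changes of -0.53 to -1.57 (limma adjusted p = 1.72e-05 to 0.0117), and a dim set had -0.95 (adjusted p = 0.156). The brightest of them averaged 34430 in PE outflow and 48030 in vehicle outflow. They cannot be assigned to either gene, and the values of Acta2 rest on its own probe set.

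Cnn1 encodes calponin 1, an actin-binding protein of differentiated smooth muscle that slows myosin's cycling. Its signal was 718, 1172, 1878, 2194 and 1829 in PE outflow, against 154, 81.1, 182, 218 and 133 in vehicle outflow. The groups were far apart, the lowest PE array at 718 and the highest vehicle array at 218. The rise was 9.0-fold (log2 3.17 ± 0.50, limma adjusted p = 5.73e-05), the largest among the 10 genes.

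Tagln encodes transgelin (SM22-alpha), an actin-bundling protein that appears early in smooth muscle differentiation. Its signal was 5193, 7674, 11580, 12040 and 10710 in PE outflow, against 1833, 710.2, 1349, 2070 and 1365 in vehicle outflow. Vehicle replicate 2 was the lowest of all 10 outflow arrays. The rise was 6.47-fold (log2 2.70 ± 0.38, limma adjusted p = 1.85e-05).

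Tpm2 encodes beta-tropomyosin, which lies along the actin filament and is shared with skeletal muscle. Its signal was 4584, 9237, 12820, 18050 and 12290 in PE outflow, against 1462, 914, 1320, 1691 and 1229 in vehicle outflow. PE replicate 1 was the lowest of the PE arrays and PE replicate 4 the highest. Tpm2 rose 7.92-fold (log2 2.99 ± 0.30, limma adjusted p = 5.67e-07), with the smallest adjusted p of the 10. A dim second probe set of Tpm2, 39.5 to 148 in PE outflow and 19.4 to 56.6 in vehicle outflow, had a log2 value of 0.67 (limma adjusted p = 0.135).

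Cald1 encodes caldesmon, which binds actin and myosin and occurs in a heavy smooth muscle form and a light form of many cells. Its brightest probe set gave 6756, 5862, 9064, 11640 and 9904 in PE outflow, against 3253, 2944, 3127, 2923 and 2108 in vehicle outflow. The groups did not overlap, and the 2.94-fold rise (log2 1.56 ± 0.18, limma adjusted p = 2.65e-06) was the smallest of the 9. A second probe set of Cald1 rose as well (log2 0.83 ± 0.19, adjusted p = 0.002), with PE replicate 5 at 354 among the vehicle values of 230.4 to 386. The dimmest, at 1.08 to 60.7 over all 20 arrays, had -0.02 (adjusted p = 0.98). Which form of caldesmon each probe set reads was not tested.

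Lmod1 encodes leiomodin 1, the smooth muscle member of a family that starts actin filaments. Its signal was 469, 406, 835, 749.6 and 804 in PE outflow, against 173, 139, 193, 250.3 and 192 in vehicle outflow. PE replicates 1 and 2 lay below the other PE arrays and above all vehicle arrays. Lmod1 rose 3.18-fold (log2 1.67 ± 0.22, limma adjusted p = 8e-06). Its striated relatives Lmod2 and Lmod3 fell in the same arrays, by 1.17 (adjusted p = 0.000463) and 1.53 (adjusted p = 4.45e-05) on the log2 scale.

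The thick filament rose too. Myh11 encodes the smooth muscle myosin heavy chain, among the most specific markers of the lineage. Its brightest probe set gave 3301, 5469, 8433, 9876 and 7542 in PE outflow, against 1809, 1180, 1563, 1814 and 1432 in vehicle outflow. The lowest PE array, replicate 1, was above the highest vehicle array, replicate 4. The rise was 4.17-fold (log2 2.06 ± 0.29, limma adjusted p = 1.81e-05). A dim second probe set of Myh11, 8.80 to 252 in PE outflow and 8.45 to 65.0 in vehicle outflow, had 1.08 ± 0.49 (adjusted p = 0.0978). It was lowest in PE on replicate 2, and without that array it passed the test (log2 1.60, adjusted p = 0.00276).

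Myl9 encodes the regulatory myosin light chain of smooth muscle, the protein that light chain kinase phosphorylates. Its signal was 4852, 9248, 11040, 12470 and 10380 in PE outflow, against 2342, 1513, 2262, 2197 and 2248 in vehicle outflow. PE replicate 1 was the lowest PE array and still above every vehicle array. The rise was 4.36-fold (log2 2.12 ± 0.24, limma adjusted p = 1.44e-06).

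Smtn encodes smoothelin, an actin-associated protein whose shorter form is made in visceral and longer form in vascular smooth muscle. It ran against the others. Its signal was 1294, 1693, 1372, 988 and 779 in PE outflow, against 2229, 2200, 2195, 2165 and 3366 in vehicle outflow. The vehicle arrays lay within a narrow band except for replicate 5, and every PE array was below it. Smtn was 2.01-fold lower (log2 -1.01 ± 0.17, limma adjusted p = 0.000101). Its dimmer probe set was lower as well (log2 -0.79 ± 0.22, adjusted p = 0.00951), with PE replicate 3 at 211 among vehicle values of 208 to 277. The dimmer set lost its call with PE replicates 1 and 3 alone (-0.41, adjusted p = 0.337) and with the GAPDH ratio as a covariate (-0.47, adjusted p = 0.179).

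Counted over probe sets, 10 of the 15 were called higher, 2 lower and 3 did not pass, against 19.6% higher and 14.9% lower of all 31042. The 3 that did not pass were the dim sets of Myh11, Tpm2 and Cald1.

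**Figure D2:**
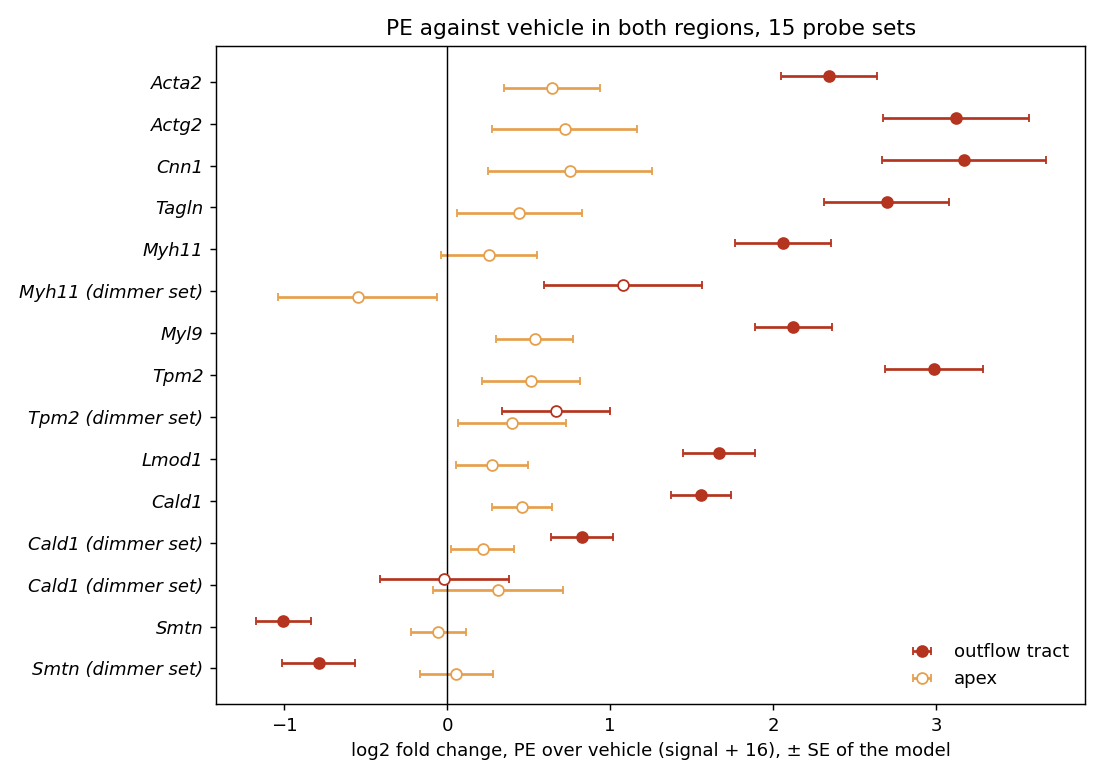
Log2 fold change of PE over vehicle (signal plus 16) for the 15 probe sets in the outflow tract and in the apex, with the standard error of the limma model (n = 5 arrays per group) and filled points for calls at an adjusted p under 0.05. In the outflow tract 12 points are filled and lie on both sides of 0, and in the apex none is filled.

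In the apex none of the 10 genes passed the test between PE and vehicle. Of all genes 0.0211%, and of all probe sets 0.0129%, were called there, so that few calls of any kind were made. Fold changes were positive for 9 genes and -0.06 for Smtn, with a median log2 fold change of 0.49, against 0.002 over all genes. At an unadjusted p under 0.05 lay 3 of the 15 probe sets, those of Acta2, Myl9 and Cald1, against 7.47% of all probe sets.

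Acta2 measured 1984, 2507, 1559, 1924 and 3356 in PE apex, against 1322, 2839, 1441, 969 and 999 in vehicle apex. The groups overlapped through vehicle replicate 2, which exceeded 4 of the PE arrays, and the log2 fold change was 0.64 ± 0.29 (limma adjusted p = 0.641). Myl9 measured 2474, 2660, 2114, 2614 and 3408 in PE apex, against 1527, 2891, 1839, 1298 and 1800 in vehicle apex (log2 0.54 ± 0.24, limma adjusted p = 0.619). Again vehicle replicate 2 alone reached into the PE values. Cald1 measured 3743, 3726, 3541, 4018 and 4433 in PE apex, against 2698, 3788, 2885, 2083 and 2883 in vehicle apex (log2 0.46 ± 0.18, limma adjusted p = 0.574), and here too the groups overlapped through vehicle replicate 2 alone.

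Among the others, Cnn1 had the largest value in the apex, 0.75 ± 0.50 (limma adjusted p = 0.793). Its signals were 92.4, 223, 88.4, 139.6 and 184 in PE apex, against 98.9, 310, 90.5, 56.3 and 5.38 in vehicle apex, a spread of the vehicle arrays that covered all PE arrays. Actg2 had 0.72 ± 0.45 (limma adjusted p = 0.775), Tpm2 0.51, Tagln 0.44, Lmod1 0.28 and Myh11 0.26. Smtn was nearly level, at 1929 to 2214 in PE apex and 1971 to 2298 in vehicle apex. Without vehicle apex replicate 2 the median over the 10 genes became 0.71, with Acta2 at 0.90, Actg2 at 1.09 and Cnn1 at 1.22, and still none passed.

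The test of the difference between the regions asked whether PE changed the genes more in the outflow tract than in the apex. All 10 genes passed: the PE effect was higher in the outflow tract for 9 and lower for Smtn, against 14.1% higher and 10.2% lower among all genes. The median difference of log2 fold changes was 1.75, against 0.10 over all genes. It was 2.47 ± 0.43 for Tpm2 (limma adjusted p = 0.000956), 2.40 ± 0.63 for Actg2 (adjusted p = 0.0123) and 2.42 ± 0.71 for Cnn1 (adjusted p = 0.0233), whose SE was the widest of the 10. It was smallest for Cald1, at 1.10 ± 0.26 (limma adjusted p = 0.00667), and -0.95 ± 0.24 for Smtn (adjusted p = 0.00943). Over the 15 probe sets, 9 were higher, 1 lower and 5 not called, against 9.84% higher and 8.09% lower of all probe sets. The 5 not called were all the further probe sets of Myh11, Tpm2, Cald1 and Smtn. Among them the second set of Cald1 had 0.61 (limma adjusted p = 0.134) and the dimmer set of Smtn -0.84 (adjusted p = 0.0732).

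Leaving out any 1 array kept 9 genes called higher and 1 lower. With PE outflow reduced to replicates 1 and 3, the PE outflow arrays with a GAPDH ratio like that of the other groups, 5 genes were called higher. Actg2, Cnn1, Tagln and Myh11 then had differences of 2.11, 2.10, 2.04 and 1.51 with limma adjusted p of 0.0657, 0.152, 0.0652 and 0.0553. Without both arrays of vehicle replicate 2, 8 were called higher and 1 lower, and Cnn1 had 1.77 (limma adjusted p = 0.0632). Under both settings all 10 genes kept their calls between PE outflow and vehicle outflow.

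Between the 2 regions of the same treatment, the outflow tract of PE rats was higher than their apex for 9 genes and lower for Smtn, against 22.3% and 15.5% of all genes called higher and lower. These arrays are also those of the comparisons above. Taken within a rat, as the log2 signal of its outflow tract minus that of its apex, Acta2 was 1.65, 1.26, 2.95, 2.89 and 1.74 in the 5 PE rats, against 0.45, -1.03, 0.65, 1.02 and 0.92 in the 5 vehicle rats. For Acta2 all PE rats lay above all vehicle rats. Myh11 was 1.29, 1.51, 2.93, 2.84 and 1.61 in PE rats, against 0.87, -1.03, 0.15, 0.81 and 0.38 in vehicle rats, also without overlap. Cnn1 overlapped, at 2.31 to 4.18 in PE rats and -1.75 to 2.8 in vehicle rats, where vehicle rat 5 reached into the PE values. Actg2 overlapped through vehicle rat 3, at 1.74 to 4.48 in PE rats and -1.49 to 1.76 in vehicle rats. Each of the 9 genes was higher in the outflow tract in 5 of 5 PE rats, and Smtn lower in 5 of 5, by 0.34 to 1.38. The share of all genes with such patterns within rats, PE or vehicle, was not counted.

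In vehicle rats none of the 10 genes passed the test between outflow tract and apex, and 0 of all 14217 genes did. All 10 log2 differences were positive, between 0.01 for Cald1 and 0.84 for Cnn1, with a median of 0.22, and none had an unadjusted p under 0.05 by limma, against 3.71% of all probe sets. Vehicle rat 2 was the exception within its group: Tagln was lower in its outflow tract by 1.89, Cnn1 by 1.75 and Actg2 by 1.49, whereas the other 4 vehicle rats were higher in the outflow tract for 8 genes. Whether the outflow and apex pieces of this rat were exchanged was not tested, so its values are those of the arrays labelled outflow and apex. Without both arrays of this rat the median difference became 0.53 and Cnn1 had 1.49, and again none passed.

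The machinery that switches smooth muscle myosin on was measured by 10 of 11 listed genes. In PE outflow 4 rose, 1 fell and 5 did not pass. The counts of this and the following lists stand beside 26.3% of all genes called higher and 18% called lower. Mylk, the light chain kinase, averaged 7341 in PE outflow and 1800 in vehicle outflow (log2 1.93 ± 0.20, limma adjusted p = 7.26e-07). Ppp1r14a, an inhibitor of the opposing myosin phosphatase, rose by 1.56 ± 0.20 (adjusted p = 4.71e-06). A smaller rise was seen for the phosphatase's targeting subunit Ppp1r12a (0.57), not called with PE outflow replicates 1 and 3 alone (0.44, limma adjusted p = 0.0949). With those 2 PE arrays 2 genes of the list rose and 0 fell, and without vehicle outflow replicate 5 there were 2 that fell. Among the probe sets of the genes that rose, 1 of 2 was called higher for Mylk and 1 of 4 for Ppp1r12a. The catalytic subunit gene Ppp1cb fell by 0.44, while Rhoa (0.10), Rock1 (-0.19) and Rock2 (-0.25) did not pass. Genes named here and in the next paragraphs beyond the 4 of each list with the smallest p were chosen after their values were seen.

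Of the serum response factor and myocardin list, 11 of 14 genes were measured, and 6 rose, 3 fell and 2 did not pass. Csrp2, a LIM protein of smooth muscle nuclei and filaments, averaged 3366 in PE outflow and 356 in vehicle outflow (log2 3.17 ± 0.14, limma adjusted p = 1.59e-10). Csrp1, its close relative, rose by 1.60 and Tgfb1i1 (Hic-5), a focal adhesion protein, by 1.58. Elk1, which competes with myocardin for serum response factor, fell by 0.82. The factor itself, Srf, had -0.31 (adjusted p = 0.0556). Of its cofactors, Myocd, present in cardiomyocytes as well as in smooth muscle, fell by 1.03, and Mrtfa rose by 0.81. Fhl2, a LIM protein abundant in heart muscle, fell by 1.15, and Klf4, a repressor of smooth muscle genes, rose by 0.77.

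Of the cytoskeleton of non-muscle and contractile cells, 24 of 26 genes were measured, and 13 rose, 6 fell and 5 did not pass, with a median of 0.52. The 4 with the smallest p were Tpm3, a tropomyosin (1.66), Myh10, a non-muscle myosin heavy chain (1.79), and the actin crosslinkers Actn4 (1.22) and Actn1 (2.23). The wider-expressed paralogues of the members rose less than the members in log2 value: Cnn2 by 0.88 and Cnn3 by 1.52, Tagln2 by 0.54 and Tpm4 by 0.99. These differences between paralogues were not tested. Of the 12 probe sets of Tpm3, 3 were called higher. Among the 6 genes that fell were Des, the intermediate filament of muscle (-1.30), and Synpo2 (-1.04).

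Of membrane and matrix partners of smooth muscle, 17 of 23 were measured, and 10 rose, 3 fell and 4 did not pass. Itga8, an integrin subunit of smooth muscle and fibroblasts, averaged 1605 in PE outflow and 115 in vehicle outflow (log2 3.56 ± 0.30, limma adjusted p = 9.31e-08). Kcnma1, the large-conductance potassium channel, rose by 3.16, Agtr1a, an angiotensin receptor, by 2.45, and Ptgis, prostacyclin synthase, by 1.68. Of the 3 probe sets of Kcnma1, 1 was called higher. Both subunits of soluble guanylate cyclase rose, Gucy1a1 by 0.95 and Gucy1b1 by 0.995. Adra1d, an alpha-1 adrenergic receptor, fell by 2.64. In the apex no gene of these 4 lists passed, and Csrp2 had 0.70 (limma adjusted p = 0.123).

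**Figure D3:**
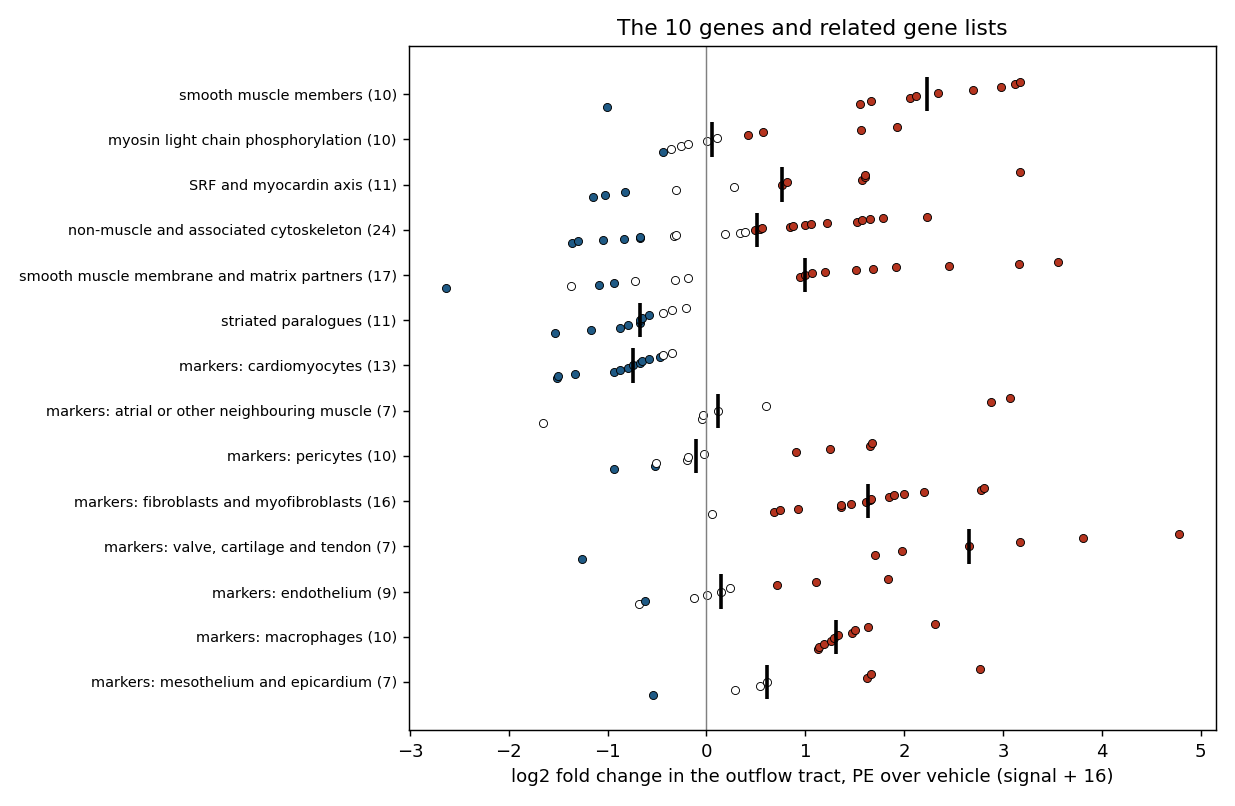
Log2 fold change of PE over vehicle in the outflow tract (signal plus 16) for the 10 genes and each related or marker list, with 1 point per measured gene, filled red where called higher, filled blue where called lower and open otherwise, and a bar at the list's median. The median is 2.23 for the 10 genes, 2.66 for valve, cartilage and tendon markers, 1.63 for fibroblast markers and -0.74 for cardiomyocyte markers. Of the 7 valve, cartilage and tendon markers, 2 had a mean log2 signal above 8 over all arrays.

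Markers of other cells were called in the same arrays, beside 26.3% higher and 18% lower of all genes. Of the striated paralogues of the members, 11 of 12 were measured, and 8 fell, 0 rose and 3 did not pass, with a median of -0.67. The 4 with the smallest p were the striated leiomodins Lmod3 (-1.53) and Lmod2 (-1.17), troponin C (Tnnc1, -0.80) and the ventricular light chain Myl3 (-0.87). Of 13 measured cardiomyocyte markers 11 fell, among them Ckm, muscle creatine kinase, by 1.52 and Ryr2, the calcium release channel, by 1.5. The 2 brightest were Atp2a2, the calcium pump of the sarcoplasmic reticulum, which fell by 0.74, and Tnnt2, cardiac troponin T, which fell by 0.585 (limma adjusted p = 0.0248). The call of Tnnt2 was lost in 6 of 23 alternatives, with adjusted p up to 0.111, 4 of them leaving out 1 array (vehicle outflow replicate 1 or PE outflow replicate 3, 4 or 5). Of the 2 probe sets of Tnnt2, 1 was called lower. The summed signal of the 13 markers was 319900, 618000, 306600, 254300 and 224500 in PE outflow, against 492700 to 588100 in vehicle outflow. In PE outflow 4 arrays lay below all vehicle outflow arrays and replicate 2 above all of them. On replicate 2 the mean log2 signal of the 10 contractile genes was 11.78, against 9.55 to 10.29 on vehicle outflow arrays. This was also the array with the GAPDH ratio of 6.12, and its beta-actin 3' to 5' ratio was 11.53, and the part of RNA quality in its values was not tested. In the apex the sum was 428900 to 509100 in PE and 497700 to 576300 in vehicle.

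**Figure D4:**
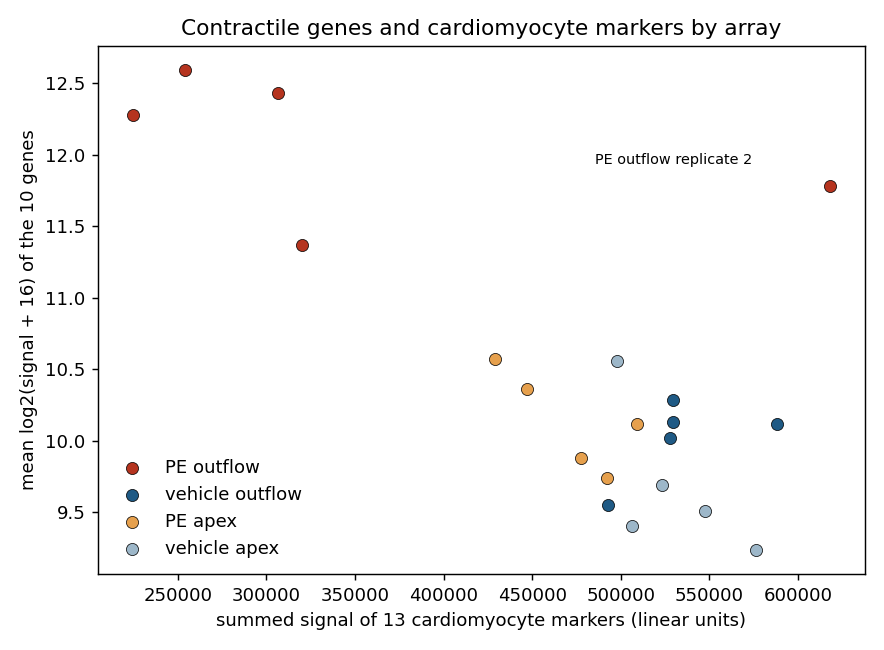
Mean log2(signal + 16) of the 10 genes against the summed signal of 13 cardiomyocyte markers (linear signal units), 1 point per array, colours for the 4 groups. The PE outflow arrays lie highest, between 11.37 and 12.59, and replicate 2 combines 11.78 with the highest marker sum of all 20 arrays, 618000.

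Fibroblast and myofibroblast markers rose in 15 of 16 cases, with a median of 1.63 and a mean log2 signal of 11.86 to 12.50 in PE outflow and 10.47 to 11.04 in vehicle outflow. Fap, a protease of activated fibroblasts, rose by 1.61 and Dpt, a matrix protein, by 1.46. Of the 2 brightest, Col3a1, a fibrillar collagen, rose by 0.93, and Dcn, abundant in resting fibroblasts, had 0.05 (limma adjusted p = 0.796). After quantile normalization Dcn was called higher, at 0.52 (limma adjusted p = 0.0164). Pericyte markers divided: 4 of 10 rose, among them Pdgfrb (1.66) and Mcam (1.68), 2 fell, and Rgs5 (-0.02) and Abcc9 (-0.20) did not pass. The pericyte mean was 9.48 to 9.95 in PE outflow and 9.27 to 9.39 in vehicle outflow. Of valve, cartilage and tendon markers 6 of 7 rose, including the matrix genes Comp (4.78) and Fmod (3.17) and the tendon membrane protein gene Tnmd (2.66), and Scx, a tendon transcription factor, fell by 1.26. Their mean log2 signal was 8.09 to 9.84 in PE outflow and 6.39 to 6.90 in vehicle outflow, with no array between. Of these 7 genes, 2 had a mean log2 signal above 8 over the 20 arrays. In vehicle outflow Comp averaged 35.8 and Tnmd 71.6, so their fold changes start from low signal. Over the alternatives Comp ranged from 3.87 to 5.77, and the number of the list's genes called higher from 3 to 6.

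Among markers of endothelium 3 of 9 rose, Vwf (1.84), Eng (1.11) and Tek (0.72), 1 fell and 5 did not pass. The 9 log2 fold changes lay between -0.68 and 1.84, with a median of 0.15. The mean log2 signal of the list was 10.999 to 11.384 in PE outflow and 10.68 to 11.10 in vehicle outflow. All 10 measured macrophage markers rose, with a median of 1.31, among them Adgre1 (F4/80) by 2.31, Cd163 by 1.47, and the 2 brightest, Lyz2, a lysozyme, by 1.13 and C1qa, a complement subunit, by 1.33. Their mean log2 signal was 10.09 to 11.51 in PE outflow and 9.48 to 9.75 in vehicle outflow. Of mesothelial and epicardial markers 3 of 7 rose, with Krt19 at 2.77 and Upk1b at 1.63, Wt1 fell by 0.54 and Lrrn4 had 0.54 (limma adjusted p = 0.19), with a mean of 6.91 to 7.59 in PE outflow and 6.04 to 6.70 in vehicle outflow. Of atrial or neighbouring muscle markers 2 of 7 rose, the light chain genes Myl4 (3.08) and Myl1 (2.88), while Myl7 had -0.04. The 7 log2 fold changes lay between -1.66 and 3.08, with a median of 0.11. The mean of the list was 7.31 to 9.36 in PE outflow and 7.39 to 7.94 in vehicle outflow. In the apex Myl4 had 2.29 (limma adjusted p = 0.346), and its difference between regions was 0.79 (limma adjusted p = 0.63). Without PE outflow replicate 2, 4 pericyte markers, 2 endothelial markers and 5 membrane partners fell, and without PE outflow replicate 4, 1 pericyte marker fell. Of the 2 probe sets of Wt1, 1 was called lower. Of all genes 26.3% were called higher, a share near those of the endothelial and atrial lists. The part of these cell markers in the rise of the contractile genes was not tested.

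The 9 genes that rose also varied together among arrays of the same group. Over 20 arrays, after subtracting group means of log2 signal, their 36 pairs had a Pearson r of 0.45 to 0.93 with a median of 0.76. Smtn correlated with the 9 at -0.62 to -0.06, with a median of -0.23. Without PE outflow replicate 2 the 36 pairs lay at 0.27 to 0.94, again with a median of 0.76. The arrays share dissection and RNA quality within a sample, and these values are a description. Vehicle rat 2 contributed to them through its low outflow and high apex array.

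**Figure D5:**
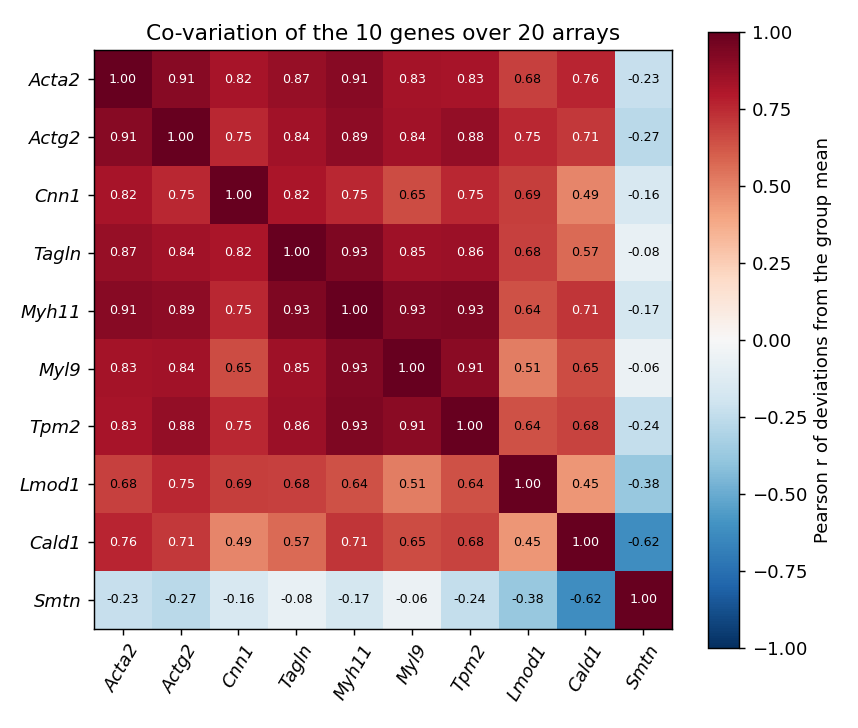
Pearson r between the deviations of log2 signal from the group mean for each pair of the 10 genes over 20 arrays. The 36 pairs among the 9 genes that rose lie between 0.45 and 0.93, with Myh11 and Tpm2 at the high end, and all pairs with Smtn lie below 0.

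Of 8120 other genes with a mean log2 signal above 8, Flna was most like the mean standardised deviation of the 10 genes, with r = 0.94 over 20 arrays. It encodes filamin A, an actin crosslinker, and rose by 1.57 in PE outflow (limma adjusted p = 9.91e-07). Mustn1, a small nuclear protein of muscle and skeleton, followed with r = 0.92 and a log2 fold change of 1.92. Next came Ssrp1, a chromatin factor subunit (r = 0.81, log2 0.63), Herpud2 (r = 0.79, log2 0.11, adjusted p = 0.391) and Sncg, a synuclein (r = 0.78, log2 1.75). Herpud2 thus varied with the contractile genes within groups without passing the test between PE outflow and vehicle outflow. The r values of these 5 genes were not computed without vehicle rat 2.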

How the data were processed

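RNA of the 20 ventricle samples was made into biotin-labelled cRNA from 5 microgram of total RNA, per the labels' protocols. The deposited values are signal intensity, 1 linear value per probe set and array, which the authors had scaled: leaving out 2% at either end, every array averaged 500.2. The array software is not given in the sources used here. Groups follow titles and treatment fields, since a text on tissue collection names vehicle for all 20 samples. For the vehicle injection the sample fields give 0.15 ml per 100 g and the design text another volume.

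Of 31099 probe sets 57 controls were set aside. The platform annotation gave 1 symbol to 20826 of the rest, several to 436 and none to 9780. All 10 members matched RefSeq (GRCr8) by Entrez identifier. The brightest probe set represented a gene. Log2(signal + 16) of all 20 arrays was fitted with 4 group means in limma 3.58.1 (R 4.3.3, eBayes), with two-sided p-values adjusted by Benjamini-Hochberg over 31042 probe sets and calls at 0.05. The fit was tested on simulated data with independent noise for each probe set and array. Pairing within rats, correlated genes and arrays of unlike RNA quality were not simulated. The number of arrays limits the precision.

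Deviations from group means over 12310 probe sets correlated between same-numbered outflow and apex arrays at 0.181 to 0.283 in PE and 0.181 to 0.275 in vehicle rats, each best with its own number, so a number stands for a rat of that treatment. PE and vehicle numbers did not pair (r of -0.283 to 0.154). A random block for the rat and a fixed block for the number, shared by both treatments, were alternatives.

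Named were all member probe sets, up to 4 genes of each pathway list with the smallest p in the outflow tract, the 2 brightest and up to 2 with the smallest p of each marker list, and the 5 genes most like the members. 1 gene of the light chain phosphorylation list that the rule names is not reported here. The members and lists were chosen with earlier results of these data known. Alternatives changed scaling, the added constant, filters, variances, weights, quality adjustment, blocks, probe sets and the arrays kept.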

Additional observations from a re-analysis of the deposited data

Results flagged for a closer look

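An array far from the others of its group was looked for by Dixon's ratio, the gap to the nearest array over the group's range, in 60 groups of 5 arrays, and 6 passed the critical value of 0.71. Chance gives about 1 in 20. Vehicle apex replicate 2 was high for Actg2 (ratio 0.817), at 905 against 203 to 269 on the other 4 arrays. Vehicle outflow replicate 2 was low for Myl9 (0.853), at 1513 against 2197 to 2342. Both arrays belong to the vehicle rat in which the contractile genes were higher in the apex than in the outflow tract.

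Vehicle outflow replicate 5 was high for Smtn (0.934), at 3366 against 2165 to 2229, and low for Cald1 (0.753), at 2108 against 2923 to 3253. PE outflow replicate 5 was low for the second probe set of Cald1 (0.738), at 354 against 562 to 662. Vehicle apex replicate 3 was low for the dimmer probe set of Smtn (0.816), at 94.4 against 216 to 259.

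The PE effect differed between the outflow tract and the apex, by limma's test of the difference, for all 10 genes. The differences of log2 fold changes, outflow minus apex, were 1.70 for Acta2, 2.40 for Actg2, 2.42 for Cnn1, 2.25 for Tagln and 1.80 for Myh11. They were 1.59 for Myl9, 2.47 for Tpm2, 1.39 for Lmod1, 1.10 for Cald1 and -0.95 for Smtn.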

How the results depend on the processing

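Across 23 alternatives for PE against vehicle in the outflow tract, 9 genes were called higher and 1 lower under each, with medians of 2.02 to 2.46. The apex gave 0 calls among the 10 genes in 22 alternatives, with medians of 0.36 to 0.71. The difference between regions kept 9 higher and 1 lower calls except for 5 higher with PE outflow replicates 1 and 3 alone, 8 with both vehicle replicate 2 arrays left out (chosen after seeing the data), and the loss of Cnn1 when 1 was added in place of 16 (2.19, adjusted p = 0.143). A random block for the rat and a fixed block for the replicate number each changed no call of the 10 genes in any comparison. With each number once in every group, neither block can move a fold change, so only SE and p could differ. The fixed block joined PE and vehicle rats of the same number, although those numbers did not pair. Whole-table calls in the outflow tract were 10720 (7307 to 11525), and in the apex 4 (1 to 31). Centring arrays on their medians moved the median of all probe sets in the outflow contrast to -0.08, against 0.05.

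Directions that turned belonged to values near 0 or dim probe sets, and the cause was not tested. Dcn had -0.08 after median centring and -0.039 without vehicle outflow replicate 5, while quantile normalization gave 0.52 (adjusted p = 0.0164), past the threshold. Myl7 had 0.01 on adding 64, 0.66 with array weights, 1.001 with PE outflow replicates 1 and 3 alone, 0.80 with the GAPDH covariate and -0.72 to 0.49 when 1 array was left out. Rgs5 had 0.061 with replicates 1 and 3 alone, 0.002 with both vehicle replicate 2 arrays left out, and -0.142 to 0.056 when 1 array was left out. Cald1 between outflow tract and apex of vehicle rats had -0.009 with the GAPDH covariate and -0.10 to 0.12 when 1 array was left out. Read by its dimmest probe set, Cald1 had -0.018 in the outflow tract and -0.33 for the difference between regions. That probe set had 0.057 with both vehicle replicate 2 arrays left out and -0.29 to 0.22 with 1 array left out. Dim probe sets near the array background limit what can be said of Myh11, Tpm2 and Cald1 beyond their brightest sets. For the difference between regions, the second set of Cald1 and the dimmer set of Smtn were not called either.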
